A study of Mus musculus with 2 samples.

Results

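Mir203 and Mir205, the miRNA genes best known from stratified epithelium, were followed through 2 small-RNA libraries of mouse adrenal gland. They are 2 of 2202 miRNA genes in the deposited tables and were chosen by gene name, through the Ensembl identifiers ENSMUSG00000065574.1 for Mir203 and ENSMUSG00000065533.1 for Mir205. Both libraries form a single group of females of the hybrid strain B6CASTF1/J, aged 4 days, with no treatment named. They are numbered as biological replicates and described as separate females, but share 1 donor identifier, so the spread between them is that of 2 samples and may be in part technical. The material was whole tissue, in which fewer cells of a type and less miRNA per cell cannot be told apart.

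A miRNA is cut from a hairpin precursor, and bases 2 to 8 of the mature strand, the seed, select its target messages. The arm miR-203-3p is known from the differentiating layers of the epidermis, where it represses the transcription factor p63 and so limits the renewal of basal cells. The arm miR-205-5p is known from the basal and progenitor layers of skin, mammary gland and prostate, and it shares with the miR-200 family the repression of Zeb1 and Zeb2, factors that switch off epithelial genes. The adrenal gland, a steroid-producing cortex around a catecholamine-producing medulla, is not a stratified epithelium.

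The pair are grouped here by the tissue they are known from and not by sequence. The mature arms are printed below with the seed in capitals, from RefSeq on GRCm38.p6 (mm10), 5′ to 3′.
mmu-miR-203-3p: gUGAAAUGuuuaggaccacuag
mmu-miR-203-5p: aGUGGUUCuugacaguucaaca
mmu-miR-205-5p: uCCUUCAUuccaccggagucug
mmu-miR-205-3p: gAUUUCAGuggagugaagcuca
All 4 arms are 22 bases long. The seeds of miR-203-3p and miR-205-5p differ at 7 of 7 positions, and the arms have the same base at 3 of 22 positions when laid end to end without gaps. None of the 4 seeds was shared with another of the 1738 mature entries of the RefSeq table, so no second gene in it has either seed. The files count reads per hairpin gene and do not tell the arms apart.

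The hairpins are printed next, with both mature arms in capitals. Each count of a member below is the number of reads falling on its own hairpin.
Mir203: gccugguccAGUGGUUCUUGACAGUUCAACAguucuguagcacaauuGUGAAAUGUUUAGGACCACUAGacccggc
Mir205: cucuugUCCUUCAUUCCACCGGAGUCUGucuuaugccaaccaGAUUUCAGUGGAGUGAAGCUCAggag
The Mir203 hairpin spans 76 bases on the plus strand of chromosome 12 (112130880 to 112130955, mm10). It overlaps no other GENCODE M21 gene and lies between the protein-coding genes Aspg, 3.32 kb upstream, and Kif26a, 15.3 kb downstream. The Mir205 hairpin spans 68 bases on the minus strand of chromosome 1 (193507463 to 193507530), inside an exon of the long noncoding RNA gene 4631405K08Rik on the same strand, which RefSeq names Mir205hg. Multiply mapped reads were kept out of the gene counts by the authors, so runs of 18 bases shared with other GENCODE M21 transcripts were searched on both strands. The Mir205 hairpin shared none outside its host gene. The Mir203 hairpin shared 1, with a retained-intron transcript of Ndst4, over hairpin bases 45 to 62. The 3p arm runs from base 48 to base 69 and extends past that match, so its full length is not contained in it.

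Replicate 1 held 4960537 reads on annotated miRNA strands and replicate 2 held 4506482, and levels are given as CPM, the reads of a gene scaled to a common total of these. A gene with at least 10 reads in both libraries is called detected, which 377 genes and both members were. As a check of the tissue, Mir375, a miRNA of neuroendocrine cells, stood at 36380 and 41025 CPM in replicates 1 and 2. Of the 8 genes of that neuroendocrine list, 6 were in the tables and 3 were detected. Of these 3, 2 were called higher in replicate 2, as were 35.5% of all detected genes. The 3 gene copies of Mir9, a neuronal miRNA, had at most 6 reads each, but they share a mature sequence whose multiply mapped reads go uncounted. No gene of the lists marks the cortex, whose share was not checked.

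Mir203 stood above the middle of the detected genes. It had 2210 reads in replicate 1, or 446 CPM (95% exact Poisson interval 427 to 464), and 4356 reads in replicate 2, or 967 CPM (938 to 996). Replicate 2 held the higher level and the intervals, which cover counting error only, did not overlap. Among the 377 detected genes Mir203 ranked 135 in replicate 1 and 83 in replicate 2. Its mean was 706 CPM ± 368 (SD, n = 2), higher than that of 71.9% of detected genes.

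Mir205 was rare. It had 196 reads in replicate 1, or 39.5 CPM (95% exact Poisson interval 34.2 to 45.4), and 27 reads in replicate 2, or 5.99 CPM (3.95 to 8.72). Here replicate 1 held the higher level, again with no overlap of the intervals. Its rank among detected genes was 257 in replicate 1 and 329 in replicate 2, and its mean of 22.8 CPM ± 23.7 (SD, n = 2) was no larger than its spread. Ranks are of reads per gene, without division by length. The mature arms of the 345 detected genes found in RefSeq ran from 19 to 26 bases, with a median of 22.

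**Figure D1:**
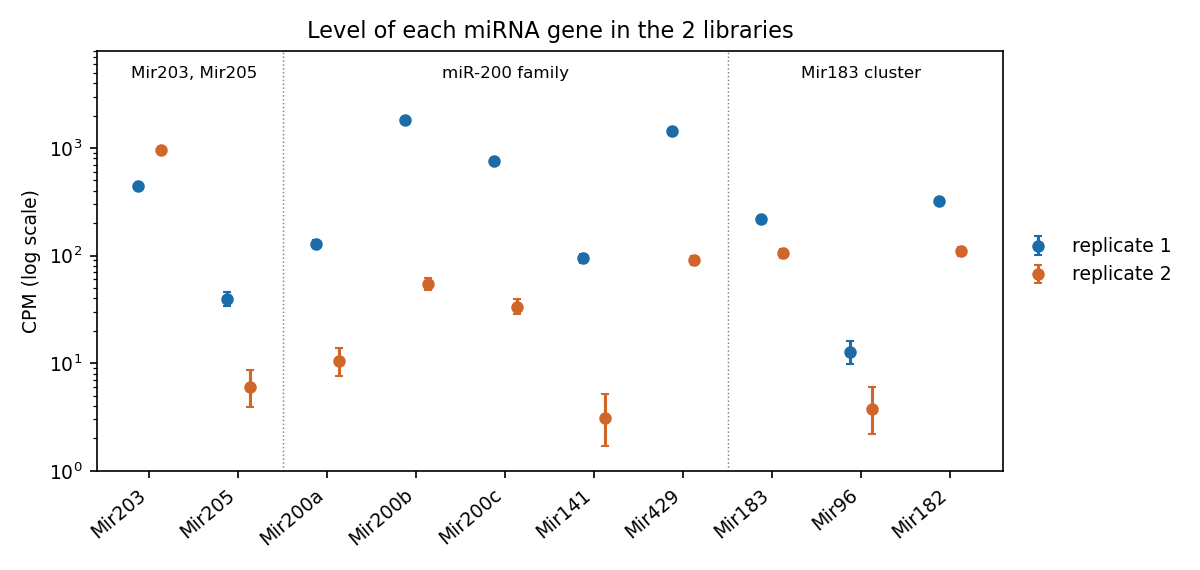
Level of each miRNA gene in CPM (log axis) in replicate 1 (blue) and replicate 2 (orange), with 95% exact Poisson intervals that cover counting error only. Mir203 stands higher in replicate 2 (967 against 446 CPM), whereas Mir205, the 5 genes of the miR-200 family and the 3 genes of the Mir183 cluster stand higher in replicate 1.

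The members thus differed between the libraries in opposite directions. With reads scaled by TMM (trimmed mean of M values), Mir203 was 2.38-fold higher in replicate 2 (log2 ratio of replicate 2 over replicate 1 of 1.25, 95% exact interval 1.17 to 1.32). Mir205 was 6.02-fold higher in replicate 1 (log2 ratio -2.59, interval -3.23 to -2.01). The CPM values are not TMM-scaled, which sets their ratios apart from these by 0.13 on the log2 scale. An exact binomial test of the read split, adjusted by Benjamini-Hochberg over the 377 genes, called both (adjusted p = 4.91e-256 for Mir203 and 6.31e-26 for Mir205). The libraries, not conditions, are what this test compares, and it called 68.2% of detected genes, 35.5% as higher in replicate 2 and 32.6% as higher in replicate 1. A call by itself therefore does not set the pair apart.

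The size of the ratios was less common than the calls. At least 2-fold differences were held by 18.3% of detected genes, 6.37% towards replicate 2, where Mir203 had the 18th highest ratio, and 11.9% towards replicate 1, where Mir205 had the 10th. A ratio as large as that of Mir205 in either direction was found at 13 genes, itself included, and one as large as that of Mir203 at 46. A stricter reading came from edgeR's exact test, which takes its dispersion from these same libraries (biological coefficient of variation 0.433). By it neither member passed (adjusted p = 1.0 for Mir203 and 0.292 for Mir205; unadjusted 0.174 and 0.0101). That test called 1.86% of the genes. It has 1 library on each side and takes its dispersion from the difference it tests, so a missed call does not show that a member lay within the spread between animals.

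**Figure D2:**
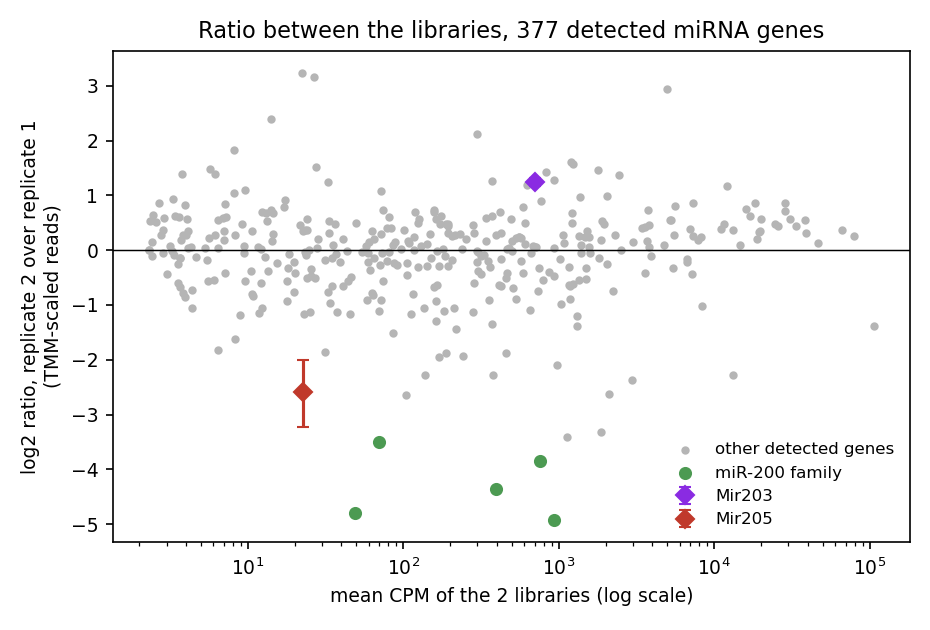
Log2 ratio of TMM-scaled reads, replicate 2 over replicate 1, against the mean CPM of the 2 libraries (log axis) for the 377 detected genes, with 95% exact binomial intervals for Mir203 and Mir205 (that of Mir203 is narrower than its symbol). Mir203 lies at 1.25 among the higher ratios, and Mir205 lies at -2.59, between most genes and the miR-200 family in green.

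Set against each other within a library, the pair differed in proportion between the libraries, a measure that does not depend on how the libraries are scaled. The mature arms are equal in length, but how well each sequence was captured was not measured. The ratios within a library are therefore of reads and not of molecules. Mir203 had 11.3 times the reads of Mir205 in replicate 1 and 161 times in replicate 2. The odds of a read being Mir205 rather than Mir203 were 14.3-fold lower in replicate 2 (95% exact interval 9.50 to 22.3; Fisher's exact test, two-sided, p = 1.88e-61, counting error only). The width of that interval was set by the 27 reads of Mir205 in replicate 2.

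Mir205 differed in the direction of the miR-200 family and Mir203 in the opposite one. The miR-200 family, which maintains epithelial identity, comprises Mir200a, Mir200b, Mir200c, Mir141 and Mir429. All 5 were called higher in replicate 1, as were 32.6% of all detected genes. The median log2 ratio of the 5 was -4.36, beside 0.04 over all detected genes. Their summed level was 4224 CPM in replicate 1 and 192 CPM in replicate 2. Mir200a, the member with the smallest ratio, had 637 and 47 reads (log2 ratio -3.49, interval -3.95 to -3.06). Mir205 differed less than this family as a whole. It had 0.935 reads for every 100 of the family in replicate 1 and 3.12 in replicate 2, 3.34-fold higher odds in replicate 2 (95% exact interval 2.13 to 5.04). This comparison was added with the values known and is given without a p-value. Its interval covers counting error only and is not to be read as a test.

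These 7 genes are known from epithelium elsewhere, and the cells their reads came from here were not tested. Summed over the 7 genes, reads numbered 23358 in replicate 1 and 5248 in replicate 2, and their make-up differed. The miR-200 family held 89.7% of them in replicate 1 and 16.5% in replicate 2. Mir203 held 9.46% in replicate 1 and 83.0% in replicate 2. Mir205 was a minor part of both, at 0.839% and 0.514%. A sum over the 7 genes in replicate 2 is thus for the most part a value of Mir203.

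**Figure D3:**
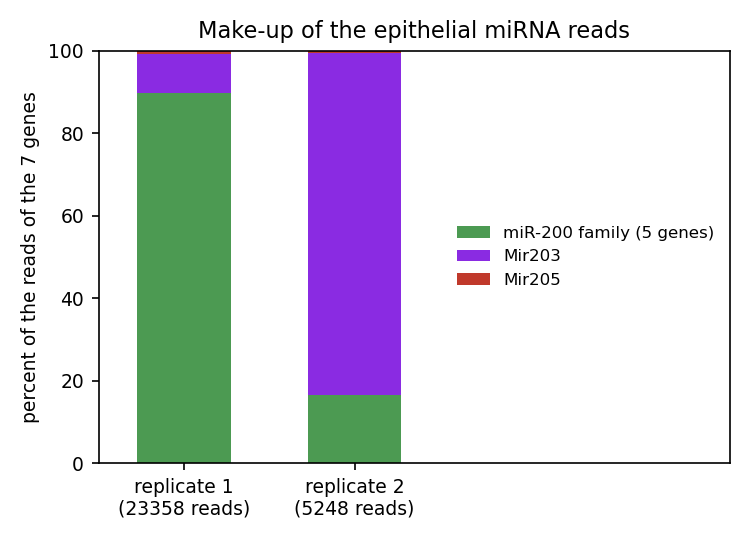
Percent of the reads of 7 miRNA genes known from epithelium held by the miR-200 family, Mir203 and Mir205 in each library, stacked to the whole. Mir203 takes 9.46% of these reads in replicate 1 and 83.0% in replicate 2, and the Mir205 part is barely visible in either.

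Other marker lists differed in direction, as small sets that are read here beside the shares over all detected genes. The Mir183 cluster (Mir183, Mir96 and Mir182), known from sensory epithelia, went with Mir205: all 3 genes were called higher in replicate 1, as were 32.6% of all detected genes, with summed levels of 556 and 218 CPM. So did the kidney-enriched list, with 3 of 4 detected genes called higher in replicate 1 (4 of 4 with scaling by total reads) and summed levels of 424 and 182 CPM. Over all detected genes the share called higher in replicate 1 was 32.6%, or 144 of 377 with total reads. Within the kidney list, Mir204 had 714 and 476 reads and Mir190a, not called with TMM scaling, had 216 and 155. Differences were larger at Mir192, with 897 and 119 reads, and at Mir194-2, with 250 and 57. Mir194-1, a second copy of the same mature miRNA, had 0 and 4, and reads that fit both copies go uncounted. The part of kidney or other epithelium in the Mir205 difference was not tested.

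In the direction of Mir203, the striated muscle list had 3 of 10 genes detected, and all 3 were called higher in replicate 2, as were 35.5% of all detected genes. Its summed levels were 1254 and 8688 CPM, nearly all from Mir206 (6146 and 38876 reads). Mir133a-1, another muscle gene, had 0 and 3 reads, but its mature sequence has further gene copies and such reads go uncounted. Also left out by the read minimum were Mir133b, with 9 and 29 reads, and Mir1b, with 18 and 4. With no read minimum, 4 of the 10 genes were called higher in replicate 2, 1 was called higher in replicate 1 and 5 were not called. Over all 831 genes then tested, 135 were called higher in replicate 2 and 124 in replicate 1. The liver miRNA Mir122 was also higher in replicate 2, at 1449 and 2638 CPM. The part of such tissues in the Mir203 difference was not tested. The endothelial list was split, with Mir126a (156832 and 54709 CPM) and Mir222 called higher in replicate 1 and Mir139 and Mir221 called higher in replicate 2.

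The other miRNAs studied in skin were called in both directions. Of 10 genes of the keratinocyte and hair follicle list, all detected, 4 were called towards replicate 1 and 5 towards replicate 2, and Mir24-1 was not called. The shares over all detected genes were 32.6% and 35.5%. The list median log2 ratio was 0.08, and -0.05 with scaling by total reads. Mir31, linked to keratinocyte growth, had 267 and 302 CPM. Mir34c, which p63 represses in keratinocytes, was 2.74-fold higher in replicate 2 (1021 and 2556 CPM). Mir34a, also on the list, went the other way and was called higher in replicate 1 (223 and 167 CPM). Mir184, known from the corneal epithelium, was 2.19-fold higher in replicate 1 (53.2 and 22.2 CPM). Mir214, from hair follicle and mesenchyme, was 6.13-fold higher in replicate 1 (3641 and 542 CPM). Several of these genes are also expressed in mesenchyme or nerve. Mir24-1 and Mir24-2 share a main mature sequence, as do Mir125b-1 and Mir125b-2. Reads that fit both copies go uncounted, so the 10 genes are not 10 separate miRNAs. Mir24-2, unlike Mir24-1, was called higher in replicate 1.

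By level in both libraries, the genes most like each member were found as the smallest distance over log2(CPM + 1), 1 point per library. For Mir203 these were Mir376c (403 and 838 CPM, distance 0.25), Mir483 (476 and 1172 CPM, distance 0.29) and Mir770 (567 and 965 CPM, distance 0.35). For Mir205 they were Mir194-2 (50.4 and 12.6 CPM, distance 1.02), Mir181a-2 (32.7 and 13.3 CPM, distance 1.07) and Mir153 (24.0 and 11.5 CPM, distance 1.09). Since nearness in both libraries chose these genes, their direction follows from the choice. In order of mean level Mir203 stood between Mir137 (712 CPM ± 24.7, SD, n = 2) and Mir146 (700.1 CPM ± 24.2), and Mir205 between Mir181a-2 (23.0 CPM ± 13.7) and Mir3074-1 (22.7 CPM ± 2.44).

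Neither locus carried another detected miRNA gene within 100 kb. The nearest to Mir203 were Mir3073a and Mir3073b, overlapping genes on opposite strands 21.6 kb upstream, with 1 and 1 reads and with 4 and 0 reads. The nearest to Mir205 was Mir3962, 1314 kb away, with 23 and 12 reads.

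The opposite strand of the Mir203 hairpin also gave reads. It had 46 in replicate 1 and 55 in replicate 2, which is 2.04% (95% Wilson interval 1.53 to 2.71) and 1.25% (0.959 to 1.62) of the reads on either strand there. The opposite strand of Mir205 had 0 reads in both libraries, which allows a share of up to 1.53% of 196 reads in replicate 1 and up to 11.1% of 27 in replicate 2. At the depth of Mir205 a share like that of Mir203 was therefore not detectable in replicate 2. Among 348 detected genes that overlap no other annotated miRNA gene, 321 had 0 opposite-strand reads in both libraries. At least 10 in both were found at 0.575% of them, namely at Mir203 and at Mir708, which had 16 and 20 (Mir708 is named after its values were seen). By number of such reads Mir203 ranked first of the 348, and by their share it ranked 6th.

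**Figure D4:**
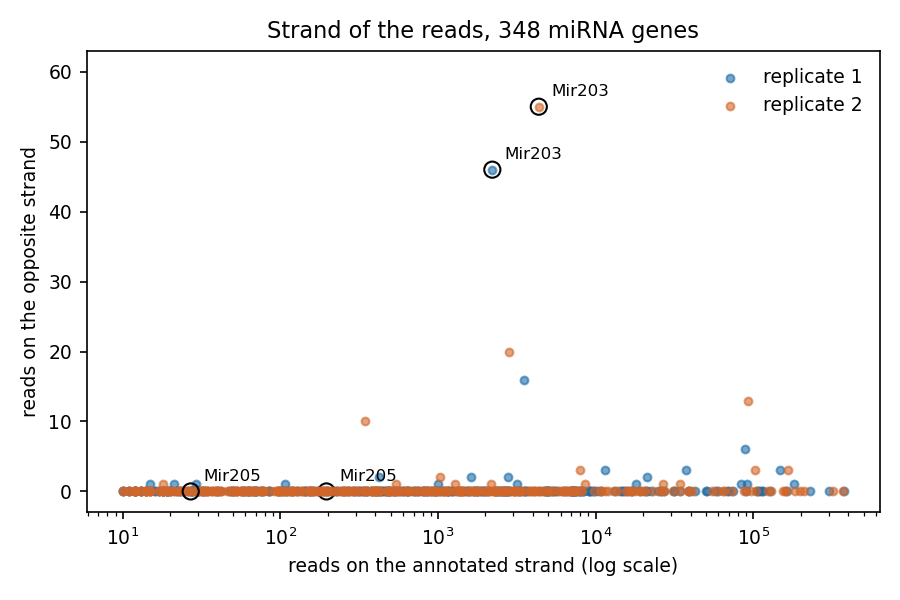
Reads on the opposite strand against reads on the annotated strand (log axis) for 348 detected genes that overlap no other miRNA gene, with Mir203 and Mir205 circled in both libraries. Mir203 lies above all others with 46 and 55 opposite-strand reads, and Mir205 lies at 0.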

How the data were processed

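The authors deposited whole-number read counts per miRNA gene for each library, not normalized. Reads were assigned on mm10 with GENCODE M21, per the file headers; for the aligner and counter, names are not given in the sources used. The 3 count columns hold reads on either, the annotated and the opposite strand, as read from the values. Of 11704395 and 11288855 reads in replicates 1 and 2, 42.4% and 39.9% fell on miRNA genes; unmapped (25.8% and 26.1%), multiply mapped (25.9% and 27.8%) and unannotated reads (5.96% and 6.24%) were left out. A CAST/EiJ difference from the reference can lower a count.

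TMM factors (1.05 and 0.956) and the exact test came from edgeR 4.0.16, other tests from SciPy 1.17.1, and size factors for 1 alternative from DESeq2 1.42.0. Calls are at an adjusted p under 0.05. The binomial test was tested on simulated data. With 2 libraries taken as 2 animals on their descriptions, differences could not be tested against variation between animals. No molecular identifiers are described, so reads may be PCR copies and intervals cover counting error only. Genes named were the members, list genes, miRNA genes within 100 kb, genes sharing a seed, rank neighbours and the 3 nearest genes by level. The members and the 8 lists were chosen with earlier results of these data known. Mature sequences are from RefSeq.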

Additional observations from a re-analysis of the deposited data

Results flagged for a closer look

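Reads on the opposite strand of Mir203 lie outside the comparisons between the libraries, which use the annotated strand,. There were 46 in replicate 1 and 55 in replicate 2. The series holds no control sample, so they were listed for being above 3 reads; 321 of 348 genes that overlap no other miRNA gene had 0 in both libraries.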

How the results depend on the processing

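Both members kept their direction under each alternative, with log2 ratios of 1.12 to 1.25 for Mir203 and -2.72 to -2.59 for Mir205. Scaling by total reads shifted each log2 ratio by 0.13 towards replicate 1. With edgeR's exact test 7 genes were called in place of 257, and the members, at 1.25 and -2.59, were not among them; that test allows for the spread of the pair. With all reads of a library as the denominator, the mean of Mir203 was 287 CPM and that of Mir205 was 9.57 CPM. Single libraries gave 446 to 967 CPM for Mir203 and 5.99 to 39.5 CPM for Mir205. The 27 reads of Mir205 in replicate 2 limit its ratio. No paired analysis was possible because the series holds 1 group.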
